A study of Homo sapiens with 17 samples.

Results

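The 6 cultures described here are the Ishikawa cultures that received recombinant human PSAT1 protein, out of 17 cultures in the series. Ishikawa is an established cell line from a human endometrial adenocarcinoma and stands in for the endometrial epithelium. PSAT1, phosphoserine aminotransferase, is an enzyme of serine synthesis, and it was added to the medium as a protein, so no gene was edited or overexpressed. The members were chosen by the names of their columns in the count table, with 3 cultures named R_PSAT1_P4 (PSAT1 with progesterone, P4) set against 3 named R_PSAT1 (PSAT1 without P4), each after 24 h.

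The labels contradict each other on these 6 cultures. The 3 cultures with the column name R_PSAT1_P4 carry the sample title PSAT1 and a treatment label of PSAT1 alone, whereas the 3 with the column name R_PSAT1 carry the title PSAT1_P4 and a treatment label of PSAT1 and progesterone. Every direction below is that of the column names. If the titles are right, each fold change of R_PSAT1_P4 against R_PSAT1 keeps its size and takes the opposite sign. For the 11 other cultures the column names and titles name the same treatment. These are 3 untreated cultures (R_Control), 3 with vehicle control and P4 (R_VC_Nap_P4), 3 with 70% ethanol as vehicle (R_VC_Nap_EtOH) and 2 with the vehicle called Nap alone (R_VC_Nap_only). What Nap stands for is not given. The labels list P4 at 0.1 and 1.0 mg/ml without tying either to a culture, and the culture methods of the study list the same values. The results and figure legends of the study instead name a single, lower concentration for its sequenced P4 cultures. The study does not mention the cultures with PSAT1. No group is labelled as PSAT1 with ethanol, so the progesterone and its vehicle cannot be told apart in R_PSAT1_P4 against R_PSAT1.

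Progesterone acts through the progesterone receptor, a nuclear receptor that binds DNA with its ligand and that the hormone itself often lowers. In the endometrium it holds back proliferation of the epithelium and prepares the tissue for implantation. A separate response, the integrated stress response, slows general translation and raises the transcription factor ATF4, which in turn raises genes of amino acid synthesis and uptake, tRNA charging and redox balance, together with DDIT3 (CHOP), TRIB3 and the secreted hormone GDF15. Immediate early genes, such as FOS and EGR1, are transcribed within minutes of many stimuli without new protein synthesis.

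RNA was measured as read counts per gene, with totals between 10414752 and 11817077 in the R_PSAT1_P4 cultures and between 13626724 and 15752334 in the R_PSAT1 cultures. The mitochondrial ribosomal RNA gene MT-RNR2 took between 21.3% and 27.1% of the counts in these 6 cultures. Levels are given as CPM, the TMM-normalised count relative to the size of its library, a scale on which levels of different genes are not comparable since it ignores their length. Changes are log2 fold changes with their standard error (SE) from edgeR's quasi-likelihood test, n = 3 per group, and a gene with a Benjamini-Hochberg adjusted p under 0.05 is called changed. The labels name the 3 cultures of a group as biological replicates and say no more of their origin, so the p-values measure the spread between these cultures.

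GDF15 and TRIB3, both raised by ATF4 and CHOP in stressed cells, were far higher in the cultures named for P4. GDF15 (ENSG00000130513.6, chromosome 19, 18374731 to 18389176, plus strand, GRCh38) stood at 134, 152 and 124 CPM in R_PSAT1_P4 and at 2.76, 3.29 and 2.99 CPM in R_PSAT1. TRIB3, a pseudokinase (ENSG00000101255.11, chromosome 20, 362835 to 397559, plus strand), stood at 366, 411 and 356 CPM against 19.4, 22.5 and 23.5 CPM. The groups lay far apart for both genes. The log2 fold change was 5.51 ± 0.11 (45.4-fold) for GDF15 and 4.12 ± 0.08 (17.4-fold) for TRIB3, each with an adjusted p of 2.8e-18 in edgeR's quasi-likelihood test. The 3 R_VC_Nap_P4 cultures held GDF15 at 113, 146 and 144 CPM and TRIB3 at 309, 395 and 385 CPM. In the untreated cultures GDF15 lay between 2.90 and 3.33 CPM and TRIB3 between 18 and 20.3 CPM. For both genes the column name R_PSAT1_P4 therefore went with the levels of the other group labelled with P4, and the name R_PSAT1 with the levels of the untreated cultures.

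**Figure D1:**
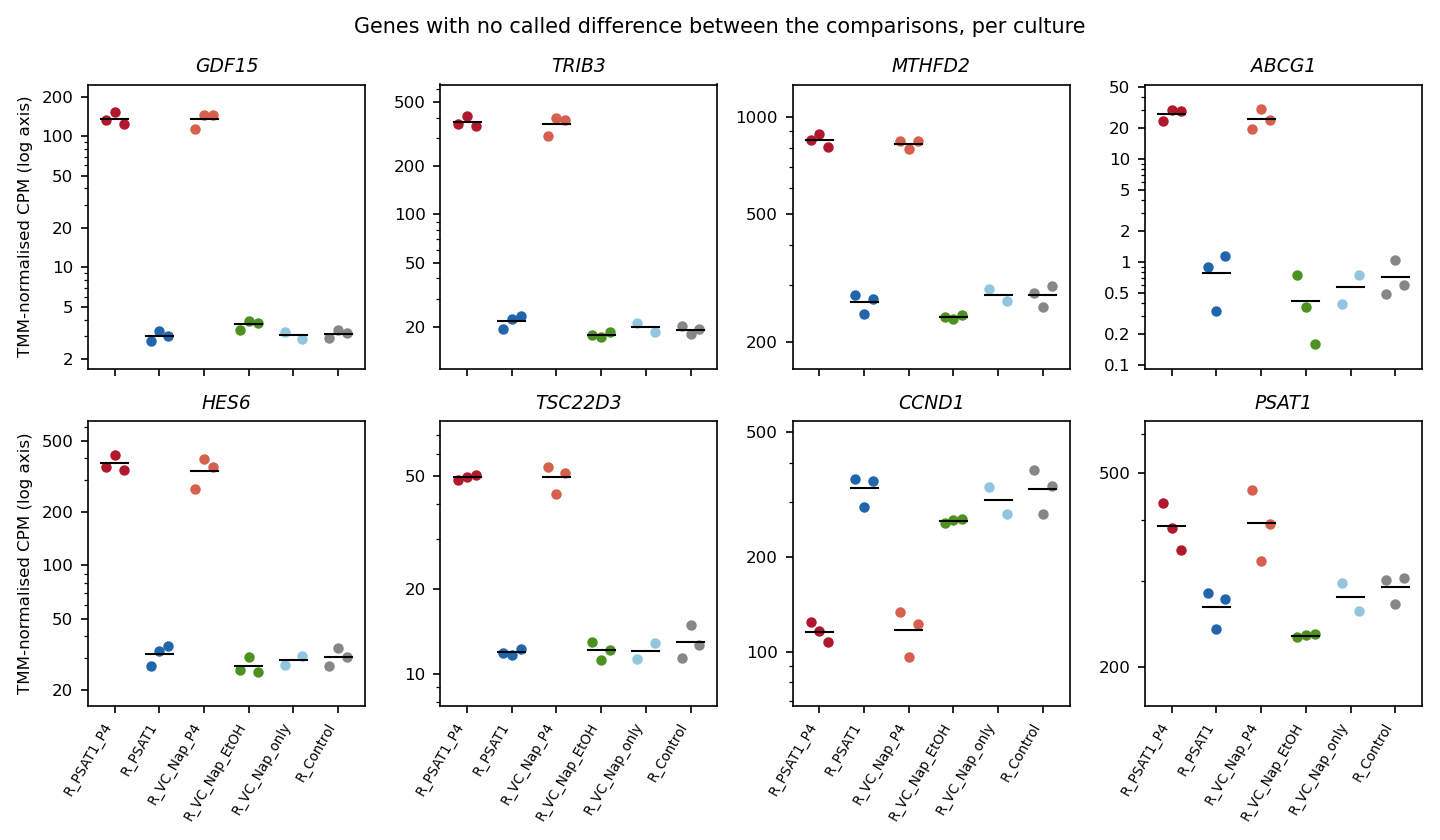
TMM-normalised CPM (log axis) of 8 genes in each culture of the 6 groups, with points for cultures and black lines for group means. GDF15, TRIB3, MTHFD2, ABCG1, HES6 and TSC22D3 are high in both groups named for P4 and low in the 4 others, CCND1 is low in both groups named for P4, and PSAT1 is higher in R_PSAT1_P4 than in R_PSAT1 by a smaller step.

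Across the transcriptome, 8613 of 12863 protein-coding genes tested (67.0%) were called between R_PSAT1_P4 and R_PSAT1. Of these, 4539 were higher (35.3% of genes tested) and 4074 lower (31.7%), with a median absolute log2 fold change of 0.61. Beyond 1 log2 unit there were 987 genes higher and 900 lower, together 14.7% of genes tested. The cultures of the 2 groups did not overlap for 9112 genes (70.8%). The median over all genes tested was -0.02, against which the lists below are read. With calls this frequent, a called gene is near the background, and the size and the balance of directions describe a list better than its count.

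The endogenous PSAT1 gene itself (chromosome 9, 78297143 to 78330093, plus strand) read 434, 384 and 347 CPM in R_PSAT1_P4 and 283, 239 and 275 CPM in R_PSAT1. The lowest P4 culture lay above the highest R_PSAT1 culture, and the log2 fold change was 0.55 ± 0.08. In the cultures without PSAT1 protein the gene rose by 0.76 (R_VC_Nap_P4 against R_VC_Nap_EtOH), and the difference between the comparisons, -0.20 ± 0.15, was not called.

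Of 18 tested ATF4 and CHOP stress regulators, 15 were higher and 2 lower, with a median log2 fold change of 1.59. ATF3, a stress-induced transcription factor, rose most, from 1.28, 1.28 and 0.957 CPM to 199, 227 and 228 CPM (7.54 ± 0.12). DDIT3, the pro-apoptotic factor CHOP, rose from 6.29, 6.45 and 6.52 CPM to 204, 230 and 231 CPM (5.11 ± 0.09). NUPR1, a stress-induced chromatin protein, rose by 3.45, CEBPG, a partner of ATF4, by 2.17, SESN2, an inhibitor of mTORC1, by 2.08 and CHAC1, which degrades glutathione, by 1.99. The mRNA of ATF4 itself moved by only 0.49 ± 0.06, from 276 to 321 CPM up to 405 to 439 CPM. Among the kinases that start the response, EIF2AK3 (PERK) rose by 1.10, EIF2AK4 (GCN2) fell by 0.21 (not called without R_PSAT1 culture 1) and EIF2AK2 (PKR) fell by 0.32, while EIF2AK1 (HRI) read 0.09 with an adjusted p of 0.20.

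Enzymes of serine, one-carbon, asparagine and proline synthesis followed with 10 of 14 tested members higher, 2 lower and a median of 0.60. ASNS, asparagine synthetase, rose by 2.39 ± 0.12, MTHFD2, a mitochondrial folate enzyme, by 1.68 ± 0.06 from 245 to 280 CPM up to 806 to 883 CPM, and ALDH1L2, another mitochondrial folate enzyme, by 1.24. PHGDH, which opens serine synthesis, rose by 0.28, while PSPH, which closes it, read 0.15 (adjusted p = 0.12). The cytosolic folate enzyme SHMT1 fell by 0.72 and ALDH18A1, of proline synthesis, by 0.55. Of 20 cytosolic aminoacyl-tRNA synthetases, which charge tRNAs with amino acids, 14 were higher and 2 lower, with a median of 0.66. SARS (serine) rose by 1.58, WARS (tryptophan) by 1.45, GARS (glycine) by 1.27 and AARS (alanine) by 1.08, whereas QARS (glutamine) fell by 0.29 and VARS (valine) by 0.30. Amino acid transporters split, with 11 of 18 higher and 5 lower (median 0.71). SLC43A1 rose by 2.61, SLC7A2, which carries cationic amino acids, by 1.44, SLC6A9, which carries glycine, by 1.45, and SLC7A11, which imports cystine, by 0.77, but the taurine carrier SLC6A6 fell by 2.20, from 74.6, 68.3 and 73.9 CPM to 17.4, 14.8 and 14.9 CPM. The betaine carrier SLC6A12 fell by 1.08.

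Promoter sequence was not searched to choose the 4 lists of ATF4 and amino acid genes. The lists hold known targets of ATF4, so the shares below are descriptions and not a test. The letters TGATGNAA, the core of the composite element that C/EBP and ATF4 proteins bind, occurred on either strand within the 250 bases before and 50 after the start of 18 of their 55 genes with a promoter in the RefSeq table (32.7%). Among all 27305 genes of that table it occurred in 1217 (4.46%), and in 0 of 24 DNA replication genes and 0 of 16 mitosis genes. The matches in 7 genes are shown because these genes span the transcription factors, enzymes, synthetases and carriers above, in RefSeq sequence of build GRCh38.p14 with the match in capitals and read 5′ to 3′ on the strand of the match:
ATF3, chr1:212565205-212565234, plus strand: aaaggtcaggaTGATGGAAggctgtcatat
CEBPG, chr19:33374060-33374089, plus strand: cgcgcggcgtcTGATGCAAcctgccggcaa
CHAC1, chr15:40953251-40953280, minus strand: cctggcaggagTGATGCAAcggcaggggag
ASNS, chr7:97872458-97872487, minus strand: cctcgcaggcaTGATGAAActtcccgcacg
GARS1 (GARS in the counts), chr7:30594834-30594863, minus strand: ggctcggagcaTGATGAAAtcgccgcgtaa
AARS1 (AARS in the counts), chr16:70289675-70289704, plus strand: tctaacttggcTGATGCAActgcgagaaaa
SLC1A5, chr19:46784893-46784922, minus strand: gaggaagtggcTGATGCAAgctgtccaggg
The 7 genes shown, picked from the 18 with a match, rose by between 0.65 (SLC1A5, a carrier of glutamine) and 7.54 (ATF3). This range does not cover the other matched genes. A match is a stretch of letters and does not show that a protein is bound there.

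Secreted stress hormones and growth factors rose in 6 of 7 tested members, with a median of 1.99. Beside GDF15, AREG, a ligand of the EGF receptor, rose by 3.49 ± 0.29 from low levels (0.577, 0.269 and 0.359 CPM up to 4.51, 4.53 and 4.76 CPM). VEGFA, which drives vessel growth, rose by 1.99 from 104, 113 and 109 CPM to 418, 438 and 440 CPM, and ADM, adrenomedullin, by 2.18. STC1 read -0.67 with an adjusted p of 0.12. The remaining listed members, FGF21, ANGPTL4 and EREG, did not pass the filter on low counts.

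Endoplasmic reticulum (ER) chaperones and genes of ER-associated degradation rose in 14 of 20 tested members and fell in 1 (median 0.70). The largest steps were those of HERPUD1, an ER-associated degradation factor (3.54), DNAJB9, an ER co-chaperone (3.44 ± 0.09), and HSPA5, the chaperone BiP (2.79 ± 0.31). HSPA5 varied most among the P4 cultures, with 604, 827 and 1189 CPM against 140, 117 and 123 CPM. XBP1, the transcription factor of the unfolded protein response, rose by 1.50 and SEL1L, of the degradation complex, by 1.54. The foldases PDIA4, PDIA6 and P4HB and the lectin chaperone CALR were within 0.08 of 0 and not called, and CRELD2 fell by 0.39. Cytosolic and mitochondrial heat shock chaperones went the other way in 6 of 12 tested members, with 3 higher and a median of -0.60. HSPE1 fell by 1.56, HSP90AA1 by 1.32, DNAJA1 by 1.24 and HSPA8 by 1.12. The rises were small, with 0.41 for HSPD1 and 0.23 for DNAJB1, and that of HSPH1 (0.37, adjusted p = 0.011) was lost with upper-quartile normalisation, without R_PSAT1_P4 culture 3 and in fits with more groups, where its adjusted p lay between 0.051 and 0.27. With upper-quartile normalisation only 1 member of this list was called higher and 7 were called lower.

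PGR, the progesterone receptor gene (chromosome 11, 101029624 to 101130524, minus strand), was the most lowered of the 13 tested steroid receptors and coregulators. It stood at 20.9, 18.9 and 18 CPM in R_PSAT1_P4 and at 98.3, 128 and 108 CPM in R_PSAT1. The groups did not overlap, and the log2 fold change was -2.52 ± 0.10. The membrane-associated component PGRMC1 fell by 0.78 and the oestrogen receptor ESR1 by 0.46. NR3C1, the glucocorticoid receptor, rose by 1.39, and the coactivators NCOA3, NCOA1 and NCOA2 by 1.06, 0.90 and 0.44, so that 6 members were higher and 3 lower (median 0.17).

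Classical progestin and glucocorticoid targets rose in 11 of 12 tested members with a median of 1.29. TSC22D3, a glucocorticoid-induced leucine zipper protein, read 48.4, 49.5 and 50.6 CPM against 11.9, 11.8 and 12.3 CPM, a rise of 2.05 ± 0.09. ERRFI1, an inhibitor of the EGF receptor, rose by 2.46, the repressor BCL6 by 2.37, the transcription factor KLF9 by 1.52, FOXO1 by 1.06 and the receptor co-chaperone FKBP5 by 0.72. HSD11B2, which inactivates cortisol, fell by 1.52. ZBTB16 and HSD17B2, both known for their rise with progestins in other endometrial cells, had no count in any of these 6 cultures. Among 15 tested genes of endometrial receptivity, 8 were higher and 4 lower (median 0.24). CD55, a complement regulator, rose by 2.78 from 22.9, 18.7 and 21.1 CPM to 133, 150 and 147 CPM, LIF, the implantation cytokine, rose by 1.41 and the integrin subunits ITGB3 and ITGAV by 0.79 and 0.54. The mucin MUC16 fell by 2.49, CLDN4, of tight junctions, by 1.28 and the homeobox gene HOXA10 by 0.73. PAEP, the glycodelin gene, had no count in these 6 cultures.

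Genes of proliferation were lower almost throughout. Of 27 tested DNA replication genes 24 were lower and 0 higher (median -0.69), and of 20 mitosis genes 20 were lower (median -0.79). RRM2, a subunit of ribonucleotide reductase, fell by 1.57 ± 0.08 and FEN1, the flap endonuclease, by 1.53 ± 0.08. KIF20A, a mitotic kinesin, stood at 59.1, 51.1 and 48.7 CPM against 148, 143 and 146 CPM and fell by 1.45, and KIF11, the spindle motor Eg5, fell by 1.20. MKI67, the proliferation marker Ki-67, fell by 0.97. CDC6, which licenses origins, and RFC5 and TYMS, of replication, were not called, with log2 fold changes between -0.12 and -0.03.

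At the G1 step, CCND1 (cyclin D1) stood at 124, 116 and 107 CPM against 354, 290 and 350 CPM and fell by 1.51 ± 0.08. The CDK inhibitors CDKN1A (p21), CDKN2B (p15) and CDKN1B (p27) rose by 2.06, 1.48 and 1.07, while CDKN2C (p18) fell by 1.45. In all, 4 of 14 tested members were higher and 8 lower. Apoptosis genes had 7 of 14 members higher and 4 lower. The BH3-only genes BBC3 (PUMA) and PMAIP1 (NOXA) rose by 2.05 and 1.99 and the death receptors TNFRSF10B and FAS by 1.93 and 1.41, but so did the anti-apoptotic BCL2 (1.70) and MCL1 (0.79). CASP8, the initiator caspase of death receptors, and BID, its substrate, fell by 0.58 and 0.57.

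Cholesterol genes were divided by role. In the list of synthesis and uptake 14 of 24 tested members were lower and 6 higher (median -0.41). LSS, lanosterol synthase, fell by 0.95, and the cholesterol carrier STARD4 rose by 0.52. The efflux pumps rose steeply, with ABCG1 at 23.4, 29.7 and 29.4 CPM against 0.898, 0.336 and 1.14 CPM (5.09 ± 0.21) and ABCA1 up by 3.49, so that 5 of 8 tested members of the LXR list were higher and 1 lower. The member that fell was LPCAT3, a phospholipid acyltransferase, by 0.54. The receptor genes themselves differed, with NR1H2 (LXR beta) higher by 0.80 and NR1H3 (LXR alpha) at -0.33, which was not called.

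In the list of NRF2 and ferroptosis genes 12 of 16 tested members were higher and 1 lower (median 1.05). FTH1, the ferritin heavy chain, rose by 2.81 from 118, 111 and 110 CPM to 752, 752 and 860 CPM, HMOX1, haem oxygenase 1, by 2.53, SAT1, of polyamine breakdown, by 2.07 and NFE2L2, which encodes NRF2, by 1.30. Glycolysis genes were mostly lower, with 11 of 18 tested members down and 4 up (median -0.60). LDHA, lactate dehydrogenase, fell by 1.50, PKM, pyruvate kinase, by 1.40 and GAPDH by 0.63. HKDC1, a hexokinase domain protein, rose instead, with 26.8, 38.6 and 35.7 CPM against 0.449, 0.336 and 0.299 CPM (6.52 ± 0.22), and HK2 rose by 1.06.

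Notch pathway genes had 10 of 18 tested members higher and 5 lower. HES6, a helix-loop-helix repressor, rose by 3.56 ± 0.09, from 27.2, 32.9 and 35.1 CPM to 357, 419 and 344 CPM, the ligands DLL4 and JAG1 by 3.33 and 1.29, and the repressor HEY2 by 2.04. The receptor NOTCH1 fell by 1.34. The glycosyltransferases MFNG and LFNG, which modify Notch receptors, fell by 4.01 and 3.15, with 0.294, 0.453 and 0.310 CPM of MFNG against 6.22, 5.50 and 5.98 CPM. Of 10 tested interferon-stimulated genes 5 were lower and 1 higher. IFIT1 stood at 1.18, 1.36 and 1.24 CPM against 9.11, 7.72 and 7.18 CPM (-2.65). IFIT2 fell by 1.56, and STAT2, which relays interferon signals, was the member that rose, by 0.30. Of 4 tested metallothionein and zinc exporter genes only MT1X was called, with a fall of 1.01.

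By size of change, the 10 genes with the largest rises were ATF3, FOSB, HKDC1, FOS, MOV10L1, KLHDC7B, CTGF, GDF15, CYR61 and DDIT3. Counts of MOV10L1 and KLHDC7B did not exceed 2 in any R_PSAT1 culture, while both lay between 4.55 and 6.25 CPM in R_PSAT1_P4, so their fold is poorly fixed. The 10 with the largest falls were MFNG, LRRC17, TP53AIP1, HIST1H2AB, HIST1H3A, MEOX1, TXNIP, OTOGL, LFNG and KRT23. TXNIP, an inhibitor of thioredoxin and of glucose uptake, stood at 3.33, 4.35 and 4.86 CPM against 36.6, 51.8 and 44.9 CPM and fell by 3.40. MEOX1, a homeobox gene, fell by 3.50 and the histone genes HIST1H2AB and HIST1H3A by 3.53 and 3.51. Histone genes have near-identical copies, so the split of reads between them is uncertain.

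The response was then set beside R_VC_Nap_P4 against R_VC_Nap_EtOH, which shares no culture with it. There, 7487 of 12854 protein-coding genes tested (58.2%) were called, 3908 higher (30.4%) and 3579 lower (27.8%). Of the 7443 of them also tested with PSAT1, 7238 (97.2%) had the same direction in R_PSAT1_P4 against R_PSAT1. Of the 8544 genes called with PSAT1 and tested in both, 8235 (96.4%) had the same direction without it. Both comparisons called 6472 genes, which are 75.8% of the genes called with PSAT1 and 87.0% of those called without, and 6432 of them moved the same way. The log2 fold changes followed each other across 12734 genes with Pearson's r of 0.90 and Spearman's rho of 0.89, given as a description, since genes are not independent replicates and the cultures of one comparison share their reference.

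**Figure D2:**
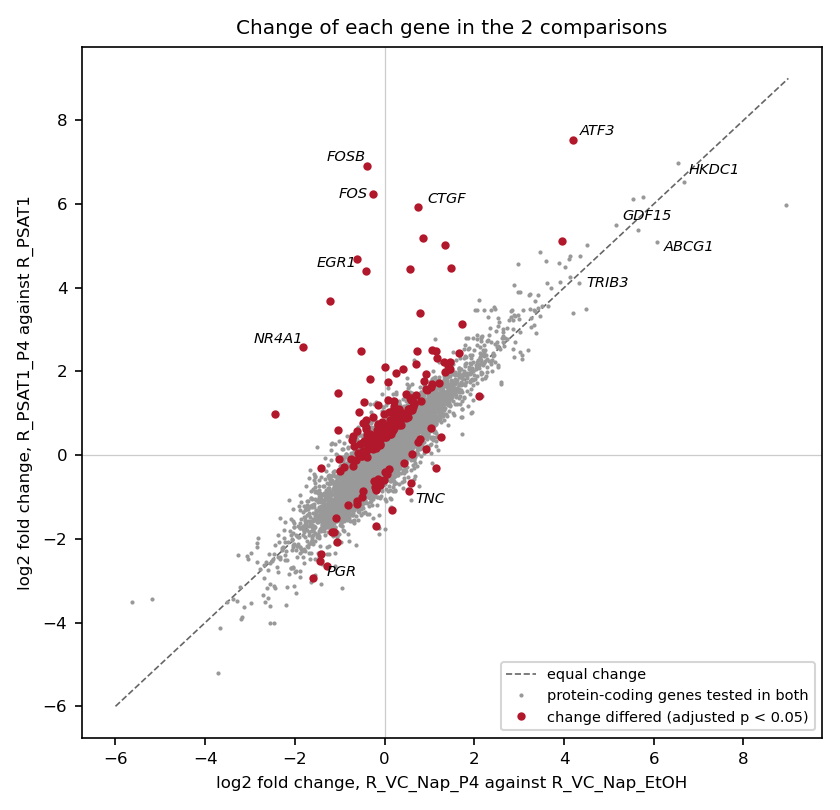
Log2 fold change of each protein-coding gene in R_PSAT1_P4 against R_PSAT1 (vertical axis) and in R_VC_Nap_P4 against R_VC_Nap_EtOH (horizontal axis), with the dashed line at equal change. Grey points are genes tested in both and red points those whose change differed in the test of the difference. Most genes lie along the line, GDF15 and TRIB3 among them, while FOS, FOSB, EGR1 and CTGF lie far above it.

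Changes were somewhat larger with PSAT1 and its reference. Among genes called in both, the absolute log2 fold change was larger in R_PSAT1_P4 against R_PSAT1 for 4169 (64.4%), with medians of 0.68 and 0.61. The median ratio of the 2 fold changes depended on which calls chose the genes, at 1.19 over genes called with PSAT1 and 1.05 over those called without. A P4 score per culture gives the same order of size. It is the mean log2(CPM + 1) of the 704 genes that rose beyond 1 log2 unit in R_VC_Nap_P4 against R_VC_Nap_EtOH minus that of the 740 that fell, centred on the ethanol cultures. The R_PSAT1_P4 cultures scored 2.40, 2.65 and 2.67 and the R_VC_Nap_P4 cultures, which helped to choose the genes, 2.12, 2.79 and 2.55, so that these 2 groups overlapped. The R_PSAT1 cultures scored 0.07, -0.04 and 0.02. The cultures of the 3 other groups not named for P4 scored between -0.01 and 0.10, so that R_PSAT1 culture 2 lay just below them.

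GDF15 rose by 5.16 without PSAT1 against 5.51 with it, and TRIB3 by 4.34 against 4.12. The differences, 0.36 ± 0.22 for GDF15 and -0.22 ± 0.14 for TRIB3, were not called (adjusted p = 0.45 and 0.47). The list of stress regulators had medians of 1.59 in both comparisons, and the medians of the enzymes, synthetases, transporters, sterol efflux, NRF2, replication and mitosis lists differed by less than 0.25 between them.

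**Figure D3:**
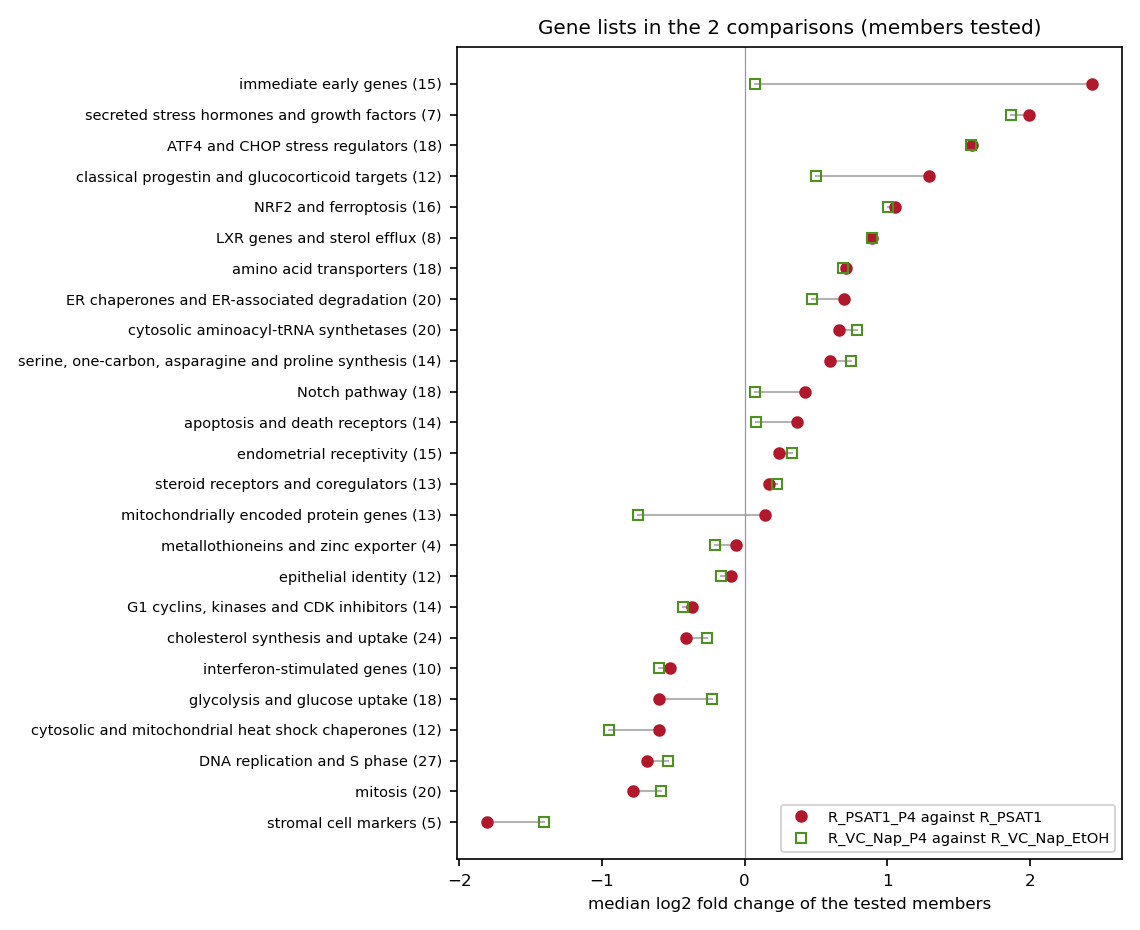
Median log2 fold change of the tested members of each gene list in R_PSAT1_P4 against R_PSAT1 (filled circles) and in R_VC_Nap_P4 against R_VC_Nap_EtOH (open squares), with the number of members tested in the first comparison in brackets. Immediate early genes stand apart with medians of 2.44 and 0.08, followed by mitochondrially encoded genes (0.14 and -0.75) and progestin targets (1.29 and 0.50).

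The test of the difference, fitted to the 12 cultures of the 4 groups, called 198 of 13112 protein-coding genes (1.51%). The change was more positive with PSAT1 in 161 of them (1.23%) and more negative in 37 (0.282%), and 53 (0.404%) differed by more than 1 log2 unit. Called in both comparisons as well were 113, of which 80 moved in the same direction with different size and 33 in opposite directions. This count rested on single cultures. It rose to 623 without R_VC_Nap_P4 culture 2 and fell to 69 without R_VC_Nap_P4 culture 3, 73 and 70 without R_VC_Nap_EtOH cultures 2 and 3, 107 and 89 without R_PSAT1_P4 cultures 2 and 3, and 85 and 90 without R_PSAT1 cultures 1 and 3.

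Immediate early genes led the list, with 11 of 16 tested members called more positive with PSAT1. FOS, a subunit of the AP-1 factor (chromosome 14, 75278774 to 75282230, plus strand), stood at 114, 92.3 and 92.1 CPM in R_PSAT1_P4 and at 1.41, 1.54 and 1.02 CPM in R_PSAT1, a rise of 6.24 ± 0.14. It also stood at 115, 85.3 and 96.1 CPM in R_VC_Nap_P4, but at 121, 117 and 116 CPM in R_VC_Nap_EtOH and at 1.58, 1.53 and 0.975 CPM in R_Control. The ethanol cultures were thus as high as both groups named for P4, and the R_PSAT1 cultures as low as the untreated ones. The difference of the log2 fold changes was 6.51 ± 0.19, with an adjusted p of 1.3e-14 in edgeR's quasi-likelihood test.

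EGR1, a zinc finger factor (chromosome 5, 138465490 to 138469315, plus strand), behaved alike, with 143, 114 and 137 CPM in R_PSAT1_P4, 4.94, 8.59 and 5.26 CPM in R_PSAT1 and 142, 209 and 190 CPM in R_VC_Nap_EtOH. FOSB differed by 7.32 ± 0.25, EGR1 by 4.82 ± 0.24, NR4A1, an orphan nuclear receptor, by 4.43 ± 0.61, JUN by 3.91 ± 0.31, MAFF, a small MAF protein, by 3.69 ± 0.55 and EGR3 by 3.43 ± 0.27. NR4A1 and EGR3 rose by 2.59 and 0.99 with PSAT1 but fell by 1.83 and 2.44 without it. Their means went from 116 and 45.8 CPM in R_VC_Nap_EtOH to 32.7 and 8.63 CPM in R_VC_Nap_P4. JUN and MAFF instead rose without PSAT1, by 0.56 and 1.34. The call of NR4A1 was lost without R_PSAT1 culture 1 or 3 (adjusted p up to 0.056). The matricellular genes CTGF and CYR61 differed by 5.18 ± 0.24 and 4.35 ± 0.54, with CTGF at 151, 161 and 173 CPM in R_PSAT1_P4, 3.27, 1.68 and 2.99 CPM in R_PSAT1 and 79.6, 115 and 94.8 CPM in R_VC_Nap_EtOH. KLF4 and JUND, also immediate early genes, rose in both comparisons (3.23 and 2.77 for KLF4, 1.78 and 1.59 for JUND) with no called difference.

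Binding sites of serum response factor, the CArG box, are known at early growth response genes. The search covered both strands of the 250 bases before and 50 after the start, and sites further away were not sought. Within this stretch the box occurred in 2 of 12 immediate early genes in the RefSeq table (16.7%) and in 438 of 27305 genes in all (1.60%). It is shown in capitals for both genes with a match, whatever the size of their difference (RefSeq, GRCh38.p14):
EGR1, chr5:138465364-138465393, plus strand: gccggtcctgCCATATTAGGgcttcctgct
EGR1, chr5:138465386-138465415, plus strand: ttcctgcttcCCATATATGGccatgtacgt
EGR2, chr10:62816418-62816447, minus strand: gttcctcagtCCATATATGGgcagcgacgt
EGR2 differed by 5.28 between the comparisons, at low levels of 6.57, 2.45 and 3.10 CPM in R_PSAT1_P4 and of 0 to 0.403 CPM in R_PSAT1. No promoter of these 12 genes held TGATGNAA.

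The same division by reference held for other genes. HES1, a Notch-responsive repressor, stood at 147, 147 and 146 CPM in R_PSAT1_P4, 42.4, 42.4 and 45.6 CPM in R_PSAT1 and 120, 174 and 151 CPM in R_VC_Nap_EtOH, so that it rose by 1.76 with PSAT1 and by 0.07 without, and the difference was 1.70 ± 0.12. In the other direction, PGR stood at 48.6, 60.5 and 61.9 CPM in R_VC_Nap_EtOH, between the R_PSAT1 cultures and the 18.1 to 27.2 CPM of R_VC_Nap_P4, and its fall was larger with PSAT1 by 1.07 ± 0.20. TNC, the matrix protein tenascin C, fell with PSAT1 from 218, 226 and 225 CPM to 123, 120 and 127 CPM and rose without it from 85.3, 81.0 and 81.5 CPM to 119, 115 and 126 CPM. The difference for TNC was -1.38 ± 0.09.

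Other genes with a more negative change with PSAT1 were DHRS3, a retinal reductase (-1.47 ± 0.21), TAGLN, the actin-binding protein transgelin (-1.43 ± 0.23), GCNT2 (-1.33), TNNC1 (-1.24), DHRS2 (-0.98), EHF (-0.92), RELN (-0.82) and FOXD1 (-0.76). TAGLN and FOXD1 were not called in R_PSAT1_P4 against R_PSAT1 and rose by 1.14 and 0.92 in the cultures without PSAT1. Some of these calls of edgeR's test depended on single cultures. EHF lost its call on removal of any of 11 of the 12 cultures (all but R_VC_Nap_P4 culture 2), with adjusted p up to 0.14, and also with upper-quartile normalisation and with at least 10 counts in every culture (adjusted p = 0.053 each). DHRS2 lost it for 8 cultures (all but R_PSAT1_P4 1 and 3, R_PSAT1 2 and R_VC_Nap_P4 2) and TNNC1 for 4 (R_PSAT1 1 and 3, R_VC_Nap_P4 3 and R_VC_Nap_EtOH 2). RELN lost it without R_VC_Nap_P4 culture 3 or R_VC_Nap_EtOH culture 3, and GCNT2 and FOXD1 without R_VC_Nap_P4 culture 3. Of 18 tested ATF4 and CHOP stress regulators 3 were called in the difference. ATF3 (3.34 ± 0.55), PPP1R15A, which reverses the translation block (1.42), and DDIT3 (1.17 ± 0.24) were more positive with PSAT1, and in the synthesis list SHMT2 was more negative (-0.36). ADM (1.49), DNAJB1 (0.60) and SAT1 (0.63) were also more positive, and IFIT1 (-1.36) was more negative. Progestin targets DUSP1, a phosphatase of MAP kinases, and FOXO1 were more positive by 1.64 and 0.88, CDKN1A by 0.63, PMAIP1 by 0.64 and MCL1 by 0.86. The glycolysis genes TPI1, LDHA, GAPDH and ENO1 were more negative by 0.45, 0.40, 0.37 and 0.36. ATF3, DDIT3 and PPP1R15A each lost their call on removal of any of 8 cultures (all but R_PSAT1_P4 1, R_VC_Nap_P4 1 and 2 and R_VC_Nap_EtOH 1), with adjusted p up to 0.089 for ATF3 and 0.11 for the others. DNAJB1 lost it for 9 of the 12 cultures, ADM, IFIT1 and LDHA for 8, SHMT2 and GAPDH for 7, ENO1 for 6, PMAIP1 for 3 (R_PSAT1_P4 2, R_PSAT1 1 and R_VC_Nap_EtOH 2) and TPI1 for R_VC_Nap_EtOH culture 2. Directions did not change. DUSP1, FOXO1, CDKN1A, MCL1 and SAT1 kept their call on removal of any 1 culture.

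**Figure D4:**
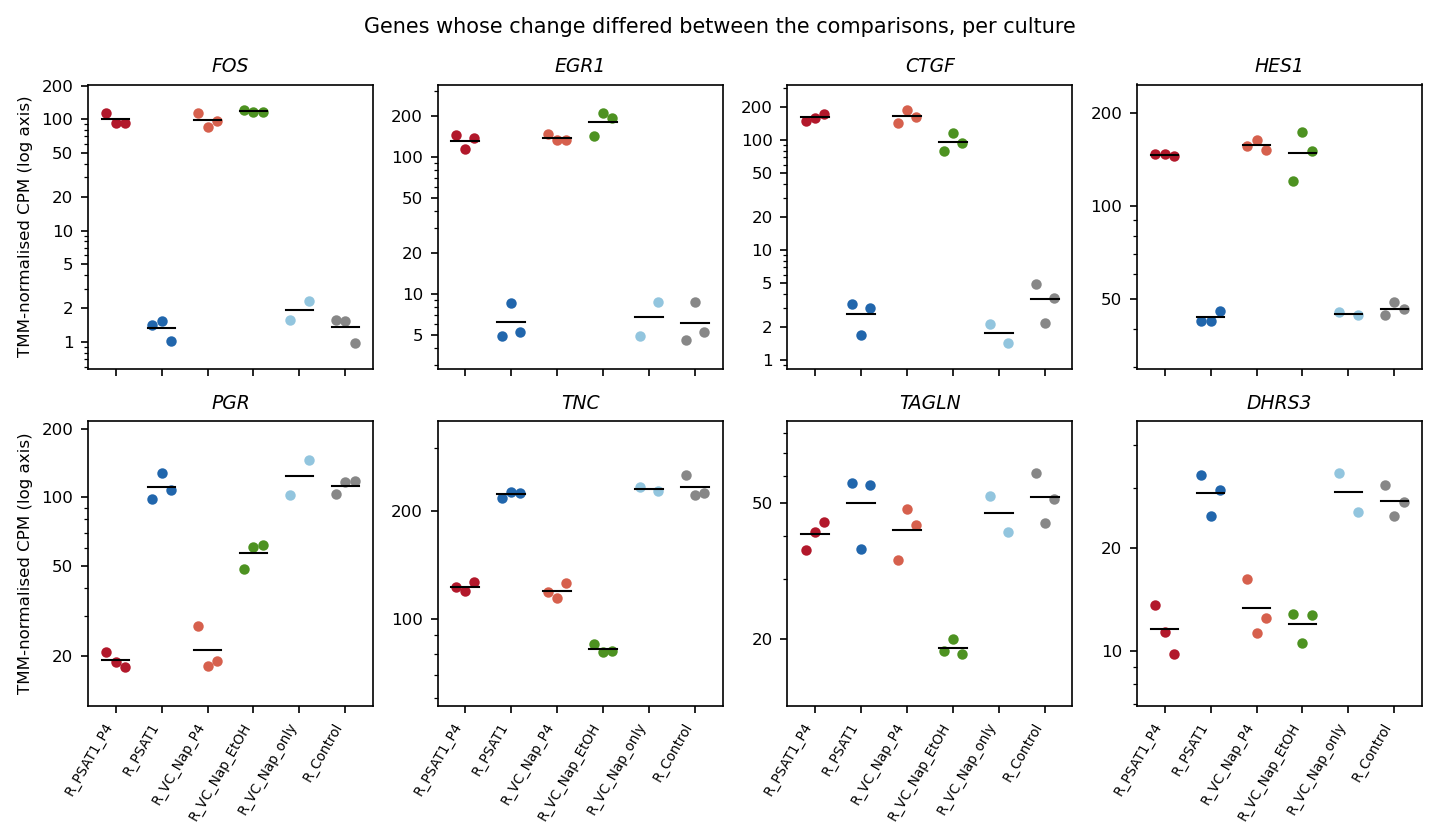
TMM-normalised CPM (log axis) of 8 genes whose change differed between the comparisons, in each culture of the 6 groups, with black lines for group means. For FOS, EGR1 and HES1 the ethanol cultures stand with both groups named for P4, and for CTGF they lie somewhat below these 2 groups. For all 4 genes R_PSAT1 stands with R_VC_Nap_only and R_Control. For TNC and TAGLN the ethanol cultures lie below all other groups.

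To see which side of the comparisons moved these genes, the groups were set against each other directly, a step added after seeing the data. Between R_PSAT1_P4 and R_VC_Nap_P4 edgeR called 0 of 12523 protein-coding genes (0.0%), DESeq2 called 0, and 109 had an unadjusted p under 0.05. Where nothing differs, a threshold of 0.05 lets through more genes than this by chance. The test was thus conservative here, and 0 calls do not show equal levels. Over the 10663 genes whose CPM averaged 5 or more, the absolute log2 fold change was under 0.5 in 99.95% and its median was 0.05, with a median SE of 0.10. Differences below that size were not resolved. Between R_PSAT1 and R_VC_Nap_EtOH 2939 of 12934 genes (22.7%) were called, 1303 higher (10.1%) and 1636 lower (12.6%), and 121 (0.936%) differed by more than 1 log2 unit. That count was between 1588 and 1737 without R_PSAT1 culture 3 or R_VC_Nap_EtOH culture 2 or 3. Between R_PSAT1 and R_VC_Nap_only edgeR called 0 of 13049 genes, DESeq2 called 1, and 975 had an unadjusted p under 0.05. This is more than that threshold lets through where nothing differs, so 0 calls do not show equal levels here either. With a block on the replicate number edgeR called 92 genes there. Without R_PSAT1 culture 1 edgeR called 71 there.

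Of the 198 genes whose change differed, 196 were called between R_PSAT1 and R_VC_Nap_EtOH, with a median absolute log2 fold change of 0.62. The 197 of them tested between R_PSAT1_P4 and R_VC_Nap_P4 had a median of 0.06 there, and 0 were called. These groups also enter the test of the difference, so the values describe which group carries it. FAM198B was the exception in size, at -1.20 ± 0.31 between the 2 groups named for P4, where it was not called. With R_VC_Nap_only or R_Control as the reference of R_VC_Nap_P4 in place of ethanol, the test of the difference called 0 genes each, with 503 and 427 at an unadjusted p under 0.05. Both counts are again fewer than that threshold lets through by chance, so the lack of calls does not show equal changes. Cultures with PSAT1 protein stood on both sides for FOS, with means of 1.32 CPM in R_PSAT1 and 99.6 CPM in R_PSAT1_P4, and low means of 1.36 and 1.95 CPM were measured without the protein in R_Control and R_VC_Nap_only. Whether the cultures named for P4 also received ethanol is not given, and the part of ethanol in these levels was not tested.

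**Figure D5:**
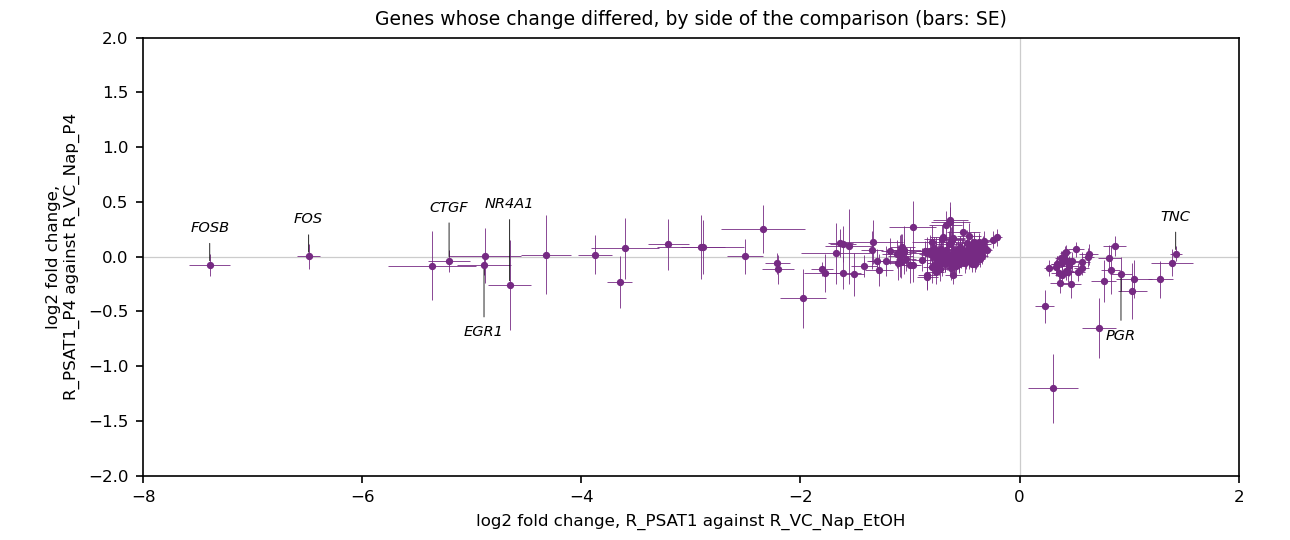
The genes whose change differed, placed by their log2 fold change between the 2 references, R_PSAT1 against R_VC_Nap_EtOH (horizontal axis), and between the 2 groups named for P4 (vertical axis), with bars of 1 SE. The points spread from -7.39 to 1.43 along the horizontal axis and stay within 0.5 of 0 on the vertical axis, apart from IFIT1 at -0.65 and FAM198B at -1.20.

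Mitochondrially encoded genes were the list with the largest shift between the comparisons after the immediate early genes, with medians of 0.14 and -0.75, but 0 of 13 members were called in the test of the difference. Between R_PSAT1 and R_VC_Nap_EtOH 10 of the 13 were called lower and 0 higher (median -0.84). With PSAT1, MT-CO1 rose by 0.48, and MT-CO3, MT-CYB, MT-ATP8 and MT-ATP6 fell by 1.53, 1.12, 1.04 and 0.74. This balance depended on the tool, since DESeq2 called 4 members higher and 4 lower. The share of counts in MT-RNR2 also moved, at 24.2% to 27.1% in R_PSAT1_P4 and 21.3% to 23.7% in R_PSAT1, and its part in these results was not tested.

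Markers of other cell types were checked in the same cultures. Epithelial identity genes summed to between 1559 and 1672 CPM in R_PSAT1_P4 and between 1648 and 1761 CPM in R_PSAT1, with 2 of 12 higher, 5 lower and EPCAM at 0.04. ESRP1, an epithelial splicing factor, rose by 1.43, the E-cadherin gene CDH1 by 0.36, and the keratin KRT8 fell by 0.68. Stromal markers summed to 128 to 160 CPM against 431 to 650 CPM, and of 5 tested 4 were lower. The collagen gene COL1A2 made up much of that sum, at 93.9, 67.6 and 59.9 CPM against 338, 500 and 406 CPM, while the stromal markers DCN and PDGFRB stayed at or under 0.321 CPM in each of the 6 cultures. THY1, also stromal, and VWF, of endothelium, were called lower (-2.67 ± 0.58 and -1.81 ± 0.43) at levels of at most 1.61 CPM. Immune markers summed to at most 1.76 CPM and endothelial markers to at most 1.62 CPM, with CD3E, NKG7 and CDH5 at 0 in all 6 cultures. In bulk RNA, fewer cells of a type and less RNA per cell cannot be told apart.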

How the data were processed

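Single-end 75 bp libraries of total RNA from Ishikawa cultures were processed by the authors with Cutadapt, a quality filter, Subread with unique alignments and featureCounts on GENCODE 31, and deposited as unnormalised read counts of 60662 genes. The strand setting of the counting is not given in the sources used here. Columns not used numbered 0. The PSAT1 cultures are not described in the methods of the study.

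Counts were analysed with edgeR 4.0.16 in R 4.3.3 (TMM, filterByExpr with minimum count 10, robust quasi-likelihood fits, Benjamini-Hochberg over all genes tested) on the compared groups only, and checked on simulated data. DESeq2 1.42.0 was an alternative, with RLE and upper-quartile normalisation, other filters on low counts, fits over 12 or 17 cultures, a block on the replicate number, grouping by sample title and each culture left out. Summaries used Python 3.11.15, pandas 2.3.3, numpy 2.4.6 and scipy 1.17.1. Gene symbols, biotypes and coordinates were read from GENCODE 29 (GRCh38), which held 58542 of the genes by ID.

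Calls were counted over protein-coding genes. The text names GDF15, TRIB3, PSAT1 and PGR, the 10 largest changes each way among called genes with groups apart and an average CPM of 5 or more in the higher group, the 2 best called members each way of 27 lists, and the 10 largest called differences each way with an average CPM of 5 or more over the 12 cultures. Others were named after their values were seen. Some genes that this rule names are not reported here. The members, lists and markers were chosen with earlier results of these data known.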

Additional observations from a re-analysis of the deposited data

Results flagged for a closer look

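The log2 fold change of R_PSAT1_P4 against R_PSAT1 differed from that of R_VC_Nap_P4 against R_VC_Nap_EtOH in 198 genes by edgeR's test of the difference itself. Among the genes named for the size of this difference, those more positive with PSAT1 were FOSB (7.32), FOS (6.51), CTGF (5.18), EGR1 (4.82), NR4A1 (4.43), CYR61 (4.35), JUN (3.91), MAFF (3.69), EGR3 (3.43) and ATF3 (3.34). Those more negative were DHRS3 (-1.47), TAGLN (-1.43), TNC (-1.38), GCNT2 (-1.33), TNNC1 (-1.24), PGR (-1.07), DHRS2 (-0.98), EHF (-0.92), RELN (-0.82) and FOXD1 (-0.76). The calls of EHF, ATF3, DHRS2, TNNC1, NR4A1, RELN, GCNT2 and FOXD1 were lost on removal of some single cultures. With R_VC_Nap_only or R_Control in place of ethanol as the reference of R_VC_Nap_P4, 0 genes were called.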

How the results depend on the processing

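The count of genes called in R_PSAT1_P4 against R_PSAT1 lay between 7885 and 8713 under every alternative run, including 8469 with the replicate block, and between 7885 and 8470 with 1 culture left out. Upper-quartile normalisation gave 44.1% of calls higher against 52.7%, with 3842 higher and 4871 lower, and moved the median of all genes to -0.12. Replicate numbers did not pair R_PSAT1_P4 with R_PSAT1. The mean correlation of same-numbered deviations was -0.05, and 0 of 6 cultures correlated best with their own number. Over the 4 groups single same-numbered pairs lay between -0.11 and 0.40. Pairs with R_VC_Nap_only and R_Control were not measured. EGR1 did go with the number in R_PSAT1, R_Control and R_VC_Nap_only. It read 4.94, 4.59 and 4.91 CPM in their cultures 1 and 8.59, 8.66 and 8.69 CPM in their cultures 2. How many genes do so was not counted. With the block the difference of the comparisons held 256 genes, R_PSAT1_P4 against R_VC_Nap_P4 0, and R_PSAT1 against R_VC_Nap_only 92.

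The difference held 347 genes without a filter, 69 to 623 with 1 culture left out, and 0 each with R_VC_Nap_only or R_Control as the reference, alternatives chosen after seeing the data. R_PSAT1 against R_VC_Nap_EtOH gave 1942 calls with DESeq2 and 1588 to 3450 with 1 culture left out, and R_PSAT1 against R_VC_Nap_only 1 and 0 to 71. Without a filter the correlation across genes was 0.62. Grouping by sample title reverses the signs by construction, which gave a correlation of -0.90, same-direction shares of 2.75% and 3.62%, and 9672 genes in the difference. The P4 score difference of 2.56 became 3.16 with pseudocount 0.1, 1.49 with pseudocount 10 and 1.32 over all genes called.

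With R_VC_Nap_only as the reference the difference changed sign for CTGF (-0.63), NR4A1 (-0.50), JUN (-0.42), MAFF (-0.32), EGR3 (-0.30), CYR61 (-0.061), FOSB (-0.022), EHF (0.0010), PGR (0.0056), DHRS2 (0.023) and TNC (0.079). With R_Control it did so for EGR3 (-0.44), NR4A1 (-0.40), JUN (-0.18), EGR1 (-0.077), FOXD1 (0.016), EHF (0.016) and TNC (0.091). None of these was called. The cause was not tested. Under the other alternatives, 319 values for the genes named in the difference kept their call and 39 lost it (EHF, ATF3, DHRS2, TNNC1, NR4A1, RELN, GCNT2 and FOXD1), and 1312 and 5 did so for the genes named in R_PSAT1_P4 against R_PSAT1 (EIF2AK4 and HSPH1). Genes named after their values were seen do not enter these counts.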
